A study of Homo sapiens with 16 samples.

Results

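The comparison described here sets PC9 LeptoM cells that carried the hairpin shLCN2_1 against PC9 LeptoM cells that carried shLCN2_2. It rests on 4 of the 16 libraries of the study, namely all 2 libraries of each hairpin in PC9, and on the 15650 of 19454 gene rows whose mean value over the 8 PC9 libraries was at least 10. PC9 is a lung cancer line. LeptoM cells are derived from it and grow as metastases in the leptomeninges, the membranes and fluid space around the brain. All the groups were grown in dishes without the cells of the brain or its membranes. The groups were PC9 LeptoM with lentiviral shLCN2_1, PC9 LeptoM with lentiviral shLCN2_2, PC9 LeptoM with the control hairpin shCTL, and the PC9 parental line without a hairpin. The same groups existed for MDA231, a breast cancer line, and the MDA231 hairpin libraries were used as a second line. Each group had 2 libraries. Whether the libraries of a group are separate cultures is not given, and the spread behind each p-value may therefore be technical. Both hairpins were compared because they left different amounts of LCN2 transcript, and a difference between them can come from the level of LCN2 or from anything else that differed between the transduced cells. These cannot be told apart with 1 line per hairpin. The hairpin sequences were not used here.

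LCN2 encodes lipocalin-2, a small secreted protein of the innate immune response. It binds bacterial siderophores, the small molecules with which bacteria collect iron, and thereby also binds iron. Its transcription in epithelial cells is driven by NF-kB, its cofactor IkB-zeta and C/EBP factors, downstream of cytokines such as IL-1 and IL-17. Cells take up transferrin iron through the transferrin receptor, store it in ferritin and export it through ferroportin, and ferritin genes also answer to the antioxidant factor NRF2.

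LCN2 itself (ENSG00000148346, a protein-coding gene on chromosome 9 at 128149071 to 128153455 on the plus strand of GRCh38) was lowest with shLCN2_1. In units of normalized counts, that is, gene reads divided by the library's size factor, it had 3575 and 7046 in the shLCN2_1 libraries and 21415 and 18861 in the shLCN2_2 libraries. It had 51004 and 49615 in the shCTL libraries and 21140 and 23248 in the parental libraries. The groups with hairpins did not overlap, and their order was shLCN2_1, shLCN2_2 and shCTL. The shLCN2_2 libraries were at about the parental level. The means were 5311 ± 2455 with shLCN2_1, 20138 ± 1806 with shLCN2_2 and 50310 ± 982 with shCTL (SD, n = 2 each), so that 10.6% of the shCTL level was left with shLCN2_1 and 40.0% with shLCN2_2. The difference between shLCN2_1 and shLCN2_2 was -2.0 on the log2(value + 1) scale (SE 0.25, limma adjusted p = 0.000346). After removal of the trend with GC content, explained next, it was -1.62 (SE 0.28, limma adjusted p = 0.0046).

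**Figure D1:**
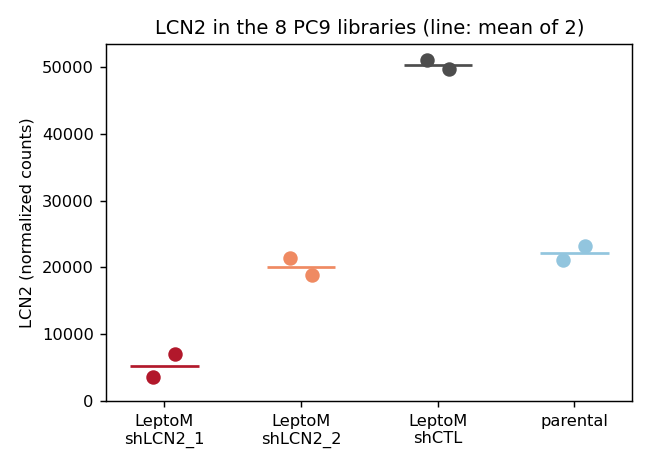
Normalized counts of LCN2 on the y axis in each of the 8 PC9 libraries, with a line at the mean of each group of 2. The shLCN2_1 libraries lie at 3575 and 7046, below the shLCN2_2 libraries at 21415 and 18861, and the shCTL libraries lie near 50310.

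The libraries differed in how their values moved with the GC content of genes. Across the 15275 tested genes with a GC value, the difference between shLCN2_1 and shLCN2_2 had a Spearman correlation of -0.703 with GC content, a description across genes that share libraries. In the bin of genes with the lowest GC content, of 10 equal bins (26.9 to 39.9%) the median difference was 0.33, and in the bin with the highest (61.6 to 74.7%) it was -1.50 on the log2 scale. Each library's deviation from the mean of the 8 correlated with GC content at -0.556 and -0.653 with shLCN2_1, 0.465 and 0.530 with shLCN2_2, and 0.472 and 0.370 with shCTL. The part of library preparation in this trend was not tested. A gene was therefore called only where limma gave a Benjamini-Hochberg adjusted p under 0.05 over all tested genes both on the deposited values and after each library's GC trend was removed, with the same sign. The removal left a correlation of 0.018 and medians between -0.02 and 0.03 in the bins.

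By this rule 1357 genes were higher with shLCN2_1 than with shLCN2_2, 8.67% of those tested, and 1728 were lower, 11%, together 19.7%. Of these, 67 higher and 317 lower genes differed by at least 1 on the log2 scale in both fits. The deposited values alone gave 4006 higher (25.6%) and 4523 lower (28.9%) genes, and the GC-removed values alone 15.5% and 16.2%. The 2 + 2 libraries did not overlap in 76.3% of all tested genes. The calls were still unevenly spread over GC content. In the bin with the lowest GC content 11.2% were called higher and 1.9% lower, and in the bin with the highest 0.196% were called higher and 22.2% lower. The shares over all tested genes, used below as background for gene lists, are not matched to the GC content of a list. Places of genes relative to shCTL given below are read from the deposited values unless GC removal is named, so they carry the GC trend. In the bin with the highest GC content the median deviations of the libraries were -0.84 and -0.94 with shLCN2_1, and 0.40 and 0.34 with shCTL. The split between directions also depended on the scaling of the libraries. The genes called higher made up 44.0% of the calls with the deposited size factors, 57.2% with TMM scaling, 63.3% with upper-quartile scaling and 17.0% where the GC trend was centred on its mean, which moved the median of all differences after GC removal by -0.165. Without shLCN2_2 replicate 1 or replicate 2 the counts were 458 and 484 higher and 742 and 829 lower. Without shLCN2_1 replicate 2 they were 2441 higher and 2758 lower, and without shCTL replicate 1 or replicate 2, which enter the estimate of spread, 904 and 901 were higher.

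The libraries carried 36796098 to 51759154 gene reads each, with 38539199 and 36796098 in shLCN2_1 and 51759154 and 47934338 in shLCN2_2, and 3 reads corresponded to a value of 2.41 to 3.52. Replicate spread was widest in shLCN2_1. The median absolute log2 gap between its 2 libraries was 0.203, against 0.0769 in shLCN2_2, 0.0714 in shCTL and 0.126 in the parental line. The 11 markers of lung adenocarcinoma and epithelial cells summed to 549283 and 570103 with shLCN2_1, 959980 and 967837 with shLCN2_2, and 931752 and 888351 with shCTL. Of these 11, NKX2-1, a lung lineage factor, had a mean under 10 and was not tested. Marker sums here are of deposited values, without GC removal, and the highest of the 11 alone had a mean of 251331 over the 8 libraries. Over the 10 tested members of a wider list of such markers, the median GC content was 56.9%. Their median difference of shLCN2_1 minus shLCN2_2 was -0.27 on deposited values and -0.23 after GC removal. Of 12 macrophage and granulocyte markers, 6 were listed, which summed to 344 and 510 with shLCN2_1, 1577 and 1581 with shLCN2_2, and 822 and 850 with shCTL. The other 6, CD163, AIF1, TYROBP, C1QA, MPO and ELANE, were not listed. In bulk libraries fewer cells of a kind and less RNA per cell cannot be told apart.

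Among the NF-kB targets of inflammation, the genes through which the pathway that drives LCN2 is usually read, the 2 shLCN2_1 libraries disagreed with each other. Replicate 1 was below replicate 2 in 22 of the 24 tested members, with ICAM1 and RELB the exceptions, and below all 5 other LeptoM libraries in 21. The same was so of 45.6% and 20.6% of all tested genes. The median gap of replicate 1 minus replicate 2 over the list was -1.34 on the log2 scale, against 0.03 over all tested genes, and between the shLCN2_2 libraries it was 0.07. This list was singled out after its values were seen.

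The chemokine IL8, which draws neutrophils, had 370 and 2286 with shLCN2_1, 2017 and 1805 with shLCN2_2, and 2700 and 2592 with shCTL. CXCL1, another neutrophil chemokine, had 43.0 and 339 with shLCN2_1, 482 and 407 with shLCN2_2, and 494 and 419 with shCTL. TNFAIP3, which encodes the feedback inhibitor A20, had 923 and 3598 with shLCN2_1, 3613 and 3899 with shLCN2_2, and 4134 and 4175 with shCTL. In all 3, replicate 1 of shLCN2_1 stood alone at the low end and replicate 2 lay within or close to the other hairpins. The acute-phase gene SAA1 had 277 and 1914 with shLCN2_1, 2296 and 1967 with shLCN2_2, and 918 and 953 with shCTL, so its shLCN2_1 libraries lay on both sides of shCTL. C3, the central complement component, had 2950 and 10204 with shLCN2_1, 15095 and 13461 with shLCN2_2, and 9551 and 9006 with shCTL.

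Of the 24 members, 0 were called higher and 2 were called lower, PTGS2 and BIRC3, a share near the background of 8.67% higher and 11% lower. By edgeR and DESeq2 likewise 0 were higher, and 0 higher and 6 lower had an unadjusted limma p under 0.05 in both fits. PTGS2, the inducible cyclooxygenase, had 340 and 423 with shLCN2_1, 515 and 494 with shLCN2_2, and 504 and 530 with shCTL. BIRC3, an inhibitor of apoptosis, had 1927 and 2399 with shLCN2_1, 2825 and 2615 with shLCN2_2, and 3138 and 2996 with shCTL. Both calls ended without shLCN2_1 replicate 1, without either shLCN2_2 library and without either shCTL library, with limma adjusted p up to 0.127 for PTGS2 and 0.16 for BIRC3. The count for the list was 19 lower without shLCN2_1 replicate 2, 2 lower without shLCN2_1 replicate 1, and 0 without any 1 library of shLCN2_2 or shCTL. With TMM or upper-quartile scaling 0 members were called lower. Of the 16 factors and receptors upstream of LCN2, 1 was called higher, 6.25%, and 2 lower, 12.5%, also near that background. STAT3, a transcription factor of cytokine signalling, had 6340 and 7553 with shLCN2_1, 10255 and 10119 with shLCN2_2, and 6573 and 6543 with shCTL, and was lower by 0.59 after GC removal (limma adjusted p = 0.002). TRAF3IP2, the adaptor of the IL-17 receptor, had 1113 and 1132 with shLCN2_1, 1414 and 1492 with shLCN2_2, and 1348 and 1255 with shCTL. NFKBIZ, which encodes IkB-zeta, did not pass, at 851 and 1272 with shLCN2_1, 1135 and 1157 with shLCN2_2, and 1124 and 991 with shCTL.

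**Figure D2:**
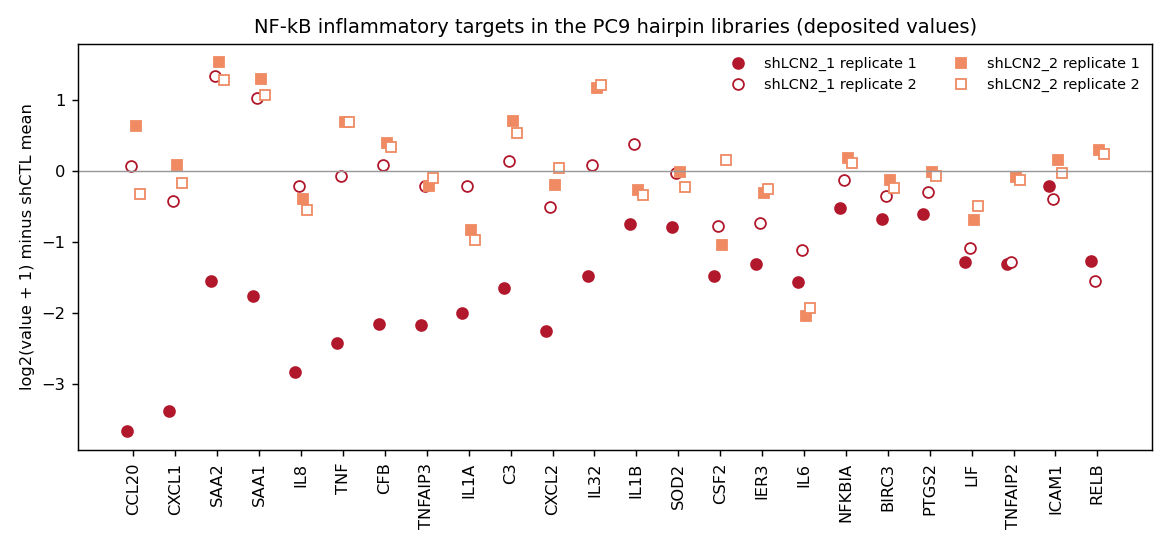
Log2(value + 1) minus the shCTL mean on the y axis for each of the 24 NF-kB targets on the x axis, with 1 point for each of the 4 PC9 hairpin libraries. Replicate 1 of shLCN2_1 (filled circles) lies below replicate 2 (open circles) in 22 of the 24 genes, while the shLCN2_2 libraries (squares) lie close together.

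Iron handling genes were called in both directions with the deposited scaling. Of 23 tested members 5 were called higher, 21.7%, and 2 lower, 8.70%, against 8.67% and 11% of all tested genes. The list median was -0.07 after GC removal, against 0.01 for all tested genes. With TMM scaling, upper-quartile scaling and edgeR 6 were higher and 0 lower in each case, and the median changed sign with upper-quartile scaling. FTL, the ferritin light chain that stores iron, had 99169 and 81425 with shLCN2_1, 55478 and 54876 with shLCN2_2, and 116241 and 109902 with shCTL. Its shLCN2_2 libraries were the low ones, and the difference was 1.12 after GC removal (SE 0.08, limma adjusted p = 0.000296). FTH1, the heavy chain, rose in the GC-removed fit alone and was not called, at 118082 and 131586 with shLCN2_1, 113416 and 108766 with shLCN2_2, and 126909 and 124026 with shCTL. SLC39A14, an importer of iron that is not bound to transferrin, had 4005 and 3853 with shLCN2_1, 2456 and 2473 with shLCN2_2, and 3409 and 3316 with shCTL.

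TFRC, the transferrin receptor, had 39859 and 35758 with shLCN2_1, 27185 and 25664 with shLCN2_2, and 33336 and 34568 with shCTL, a difference of 0.21 after GC removal (limma adjusted p = 0.0297). The exporter ferroportin, SLC40A1, had 1240 and 1507 with shLCN2_1, 917 and 936 with shLCN2_2, and 816 and 824 with shCTL. This call was lost without most single libraries, including shLCN2_1 replicate 2, either shLCN2_2 library and either shCTL library, with limma adjusted p up to 0.179. STEAP3, which reduces iron in the endosome, was the lower member that with HFE made up the 2, at 939 and 896 with shLCN2_1, 1614 and 1559 with shLCN2_2, and 1430 and 1332 with shCTL. HFE, a regulator of iron sensing, lost its call without shLCN2_1 replicate 1 and without any 1 library of the other groups, with limma adjusted p up to 0.174. HMOX1, the haem-degrading enzyme that frees iron, was not called, at 756 and 399 with shLCN2_1, 455 and 467 with shLCN2_2, and 783 and 725 with shCTL, with a difference of 0.25 on the deposited values and 1.19 after GC removal. The 5 higher members became 2 without any 1 library of shLCN2_2 or shCTL, 3 without either parental library and 8 without shLCN2_1 replicate 1. The 2 lower members became 6 without shLCN2_1 replicate 2 and 0 without either shLCN2_2 library.

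In the NRF2 antioxidant response, 11 of 28 tested members were called higher with shLCN2_1 than with shLCN2_2, 39.3%, and 4 lower, 14.3%. The background was 8.67% and 11%, and the list median was 0.24 after GC removal. AKR1C1, an aldo-keto reductase, had 38339 and 45613 with shLCN2_1, 15311 and 15711 with shLCN2_2, and 37203 and 38250 with shCTL, a difference of 1.13 (SE 0.08, limma adjusted p = 0.000366). SLC7A11, which imports cystine for glutathione, had 22573 and 22493 with shLCN2_1, 9241 and 9932 with shLCN2_2, and 22227 and 23329 with shCTL. In both genes the shLCN2_2 libraries were low and those of shLCN2_1 lay near shCTL. AKR1B10, another aldo-keto reductase, and GCLM, a subunit of the enzyme that starts glutathione synthesis, had the same order, with 48393 and 46052, then 22820 and 22327 for AKR1B10 in shLCN2_1 and shLCN2_2, and 19267 and 18168, then 10207 and 10318 for GCLM. SRXN1, sulfiredoxin, went the other way, with 135 and 138 with shLCN2_1, 384 and 417 with shLCN2_2, and 613 and 646 with shCTL, and was lower by 1.39 after GC removal (limma adjusted p = 0.00222). The number called higher was 9 to 14 when any 1 library was left out. The 4 lower members became 1 without shLCN2_2 replicate 1 and 2 without shLCN2_2 replicate 2.

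In the amino acid response led by ATF4, 8 of 25 tested members were called higher, 32%, and 1 lower, 4%. Over all tested genes the shares were 8.67% and 11%. The factor ATF4 itself had 18796 and 14930 with shLCN2_1, 12522 and 12564 with shLCN2_2, and 20122 and 19647 with shCTL. The 8 became 4 without either shLCN2_2 library and 4 where the GC trend was centred on its mean. ASNS, asparagine synthetase, had 2600 and 2927 with shLCN2_1, 1876 and 1979 with shLCN2_2, and 3444 and 3332 with shCTL, so both hairpins were below shCTL. Of the metallothioneins, which bind zinc, MT2A had 1027 and 1187 with shLCN2_1, 4455 and 5149 with shLCN2_2, and 3199 and 2862 with shCTL, and MT1X had 125 and 175 with shLCN2_1, 372 and 436 with shLCN2_2, and 253 and 241 with shCTL. In both, the hairpins lay on opposite sides of shCTL on the deposited values. The differences between the hairpins after GC removal were -1.72 for MT2A (limma adjusted p = 0.00055) and -1.33 for MT1X (limma adjusted p = 0.00149). These were the 2 called lower, 25%, of 8 tested members of the metallothionein and zinc list. In that list SLC39A10, a zinc importer, was the 1 called higher, 12.5%. SLC39A10 kept its call in only 12 of 23 alternatives, and lost it by DESeq2 and where the GC trend was centred on its mean.

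Interferon-stimulated genes, which are switched on downstream of interferon receptors, had 0 of 33 tested members called higher with shLCN2_1 and 8 lower, 24.2%. The background was 8.67% and 11%, and the list median was -0.38 after GC removal. Of the 33, 0 were higher and 10 lower at an unadjusted limma p under 0.05 in both fits, and edgeR and DESeq2 called 0 higher and 9 lower each. These counts cover the listed members only. HERC5, which was not in the list, was called higher, by 0.91 on the deposited values and 0.60 after GC removal. Set against shCTL separately, the list median after GC removal was 0.33 for shLCN2_1 and 0.56 for shLCN2_2, and those comparisons share the shCTL libraries. Against shCTL 8 members were called higher and 2 lower with shLCN2_1, and 19 higher and 0 lower with shLCN2_2. In MDA231 the list went the other way between the same hairpins. There 7 of 33 tested members were called higher, 21.2%, and 0 lower, against 1.49% and 1.14% of all tested genes. The list median there was 0.43 after GC removal. Over all genes most MDA231 calls were lost when a single library of either hairpin was left out, and whether these 7 held was not tested. The promoters of 3 of the 8 are shown because they carry the interferon-stimulated response element in its core form, the letters TTTC, any 2 bases (NN) and TTTC again, searched on both strands, with overlapping matches allowed and each match in capitals. They are RefSeq sequences of GRCh38.p14, from 250 bases before to 50 bases after the gene's start.
IFI27, chr14:94110486-94110785, plus strand: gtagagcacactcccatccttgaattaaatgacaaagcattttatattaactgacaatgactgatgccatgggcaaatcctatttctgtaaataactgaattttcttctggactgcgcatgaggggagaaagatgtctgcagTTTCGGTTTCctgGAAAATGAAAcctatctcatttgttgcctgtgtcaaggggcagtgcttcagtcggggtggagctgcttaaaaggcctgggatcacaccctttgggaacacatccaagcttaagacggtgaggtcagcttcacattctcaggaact
IFI6, chr1:27672143-27672442, minus strand: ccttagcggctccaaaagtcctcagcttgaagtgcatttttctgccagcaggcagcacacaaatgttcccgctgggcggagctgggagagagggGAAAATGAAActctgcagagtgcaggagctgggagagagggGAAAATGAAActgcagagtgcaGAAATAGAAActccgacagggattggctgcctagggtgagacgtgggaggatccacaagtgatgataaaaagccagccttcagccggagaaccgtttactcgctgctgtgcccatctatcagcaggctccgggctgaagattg
ISG15, chr1:1013247-1013546, plus strand: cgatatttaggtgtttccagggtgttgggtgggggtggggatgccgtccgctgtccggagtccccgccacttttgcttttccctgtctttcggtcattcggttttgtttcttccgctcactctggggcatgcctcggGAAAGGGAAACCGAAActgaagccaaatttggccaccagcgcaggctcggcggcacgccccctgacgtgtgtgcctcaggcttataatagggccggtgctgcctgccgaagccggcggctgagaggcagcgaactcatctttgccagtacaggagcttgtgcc
The motif was present in 6 of the 8 promoters of called members, 75%, and in 11 of the 17 promoters found for the 25 members that were not called, 64.7%. Of all 27195 promoters listed by RefSeq, 3.65% held it. A match is a description of the letters in this window.

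IFI27, a mitochondrial protein gene that answers strongly to interferon, had 3.15 and 16.5 with shLCN2_1, 70.0 and 71.9 with shLCN2_2, and 7.34 and 6.10 with shCTL. IFI6, of the same family, had 73.4 and 102 with shLCN2_1, 326 and 275 with shLCN2_2, and 77.1 and 49.8 with shCTL. For both genes shLCN2_2 was high and shLCN2_1 lay around shCTL. ISG15, a ubiquitin-like protein, had 131 and 88.1 with shLCN2_1, 508 and 607 with shLCN2_2, and 379 and 367 with shCTL, so it was below shCTL with shLCN2_1. MX1, a GTPase that blocks viruses, had 260 and 177 with shLCN2_1, 384 and 362 with shLCN2_2, and 141 and 109 with shCTL. OAS1, which senses double-stranded RNA, had 572 and 374 with shLCN2_1, 815 and 742 with shLCN2_2, and 301 and 290 with shCTL. MX1 and OAS1 were above shCTL with both hairpins. In MDA231 MX1 was called higher with shLCN2_1 than with shLCN2_2, by 1.43 after GC removal. The differences after GC removal were -2.72 for IFI27 (limma adjusted p = 0.0166), -1.37 for IFI6 (limma adjusted p = 0.00726) and -0.84 for ISG15 (limma adjusted p = 0.0137). The 8 lower members became 2 without shLCN2_2 replicate 1, 3 without shLCN2_2 replicate 2 and 11 without either shLCN2_1 library. Without one or the other shLCN2_2 library the adjusted p reached 0.0965 for IFI27, 0.0671 for IFI6 and 0.101 for ISG15.

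Of 17 tested genes of class I antigen presentation 1 was called higher, 5.88%, and 4 lower, 23.5%, against the background of 8.67% and 11%. HLA-F, a non-classical class I gene, had 44.1 and 40.8 with shLCN2_1, 211 and 204 with shLCN2_2, and 95.4 and 85.4 with shCTL. PSMB10, a subunit of the immunoproteasome, had 81.8 and 73.8 with shLCN2_1, 476 and 470 with shLCN2_2, and 393 and 403 with shCTL. The differences after GC removal were -1.77 for HLA-F (limma adjusted p = 0.00115) and -1.38 for PSMB10 (limma adjusted p = 0.000643). HLA genes share reads with close copies, so HLA-F is uncertain. The 4 lower members became 2 without shLCN2_2 replicate 1 and 7 without shLCN2_1 replicate 1.

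**Figure D3:**
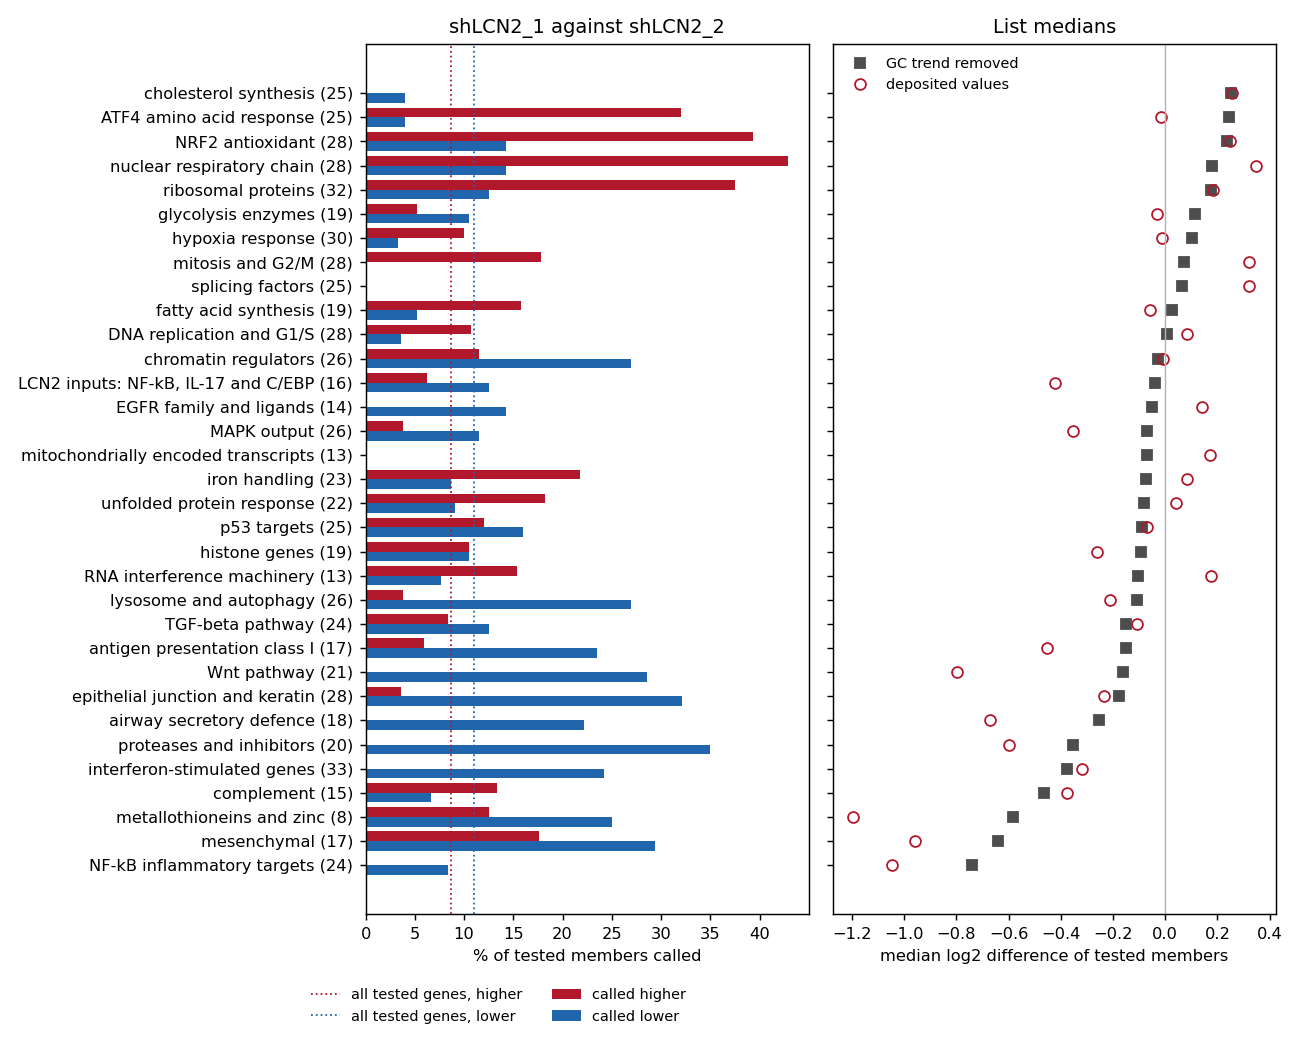
Left, percentage of tested members called higher and lower with shLCN2_1 than with shLCN2_2, by gene list, with the number tested in brackets and dotted lines at the background of 8.67% and 11%. Right, list medians of the log2 difference on deposited values and after GC removal, which run down the page from 0.25 in cholesterol synthesis to -0.74 in NF-kB targets after GC removal.

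Of 28 tested keratins and junction genes of epithelial cells 1 was called higher with shLCN2_1 and 9 lower, with 4 lower left without any 1 library of shLCN2_2 or shCTL, 5 without either parental library, 5 with TMM and 4 with upper-quartile scaling. KRT7, a keratin of simple epithelia, had 56023 and 62983 with shLCN2_1, 159155 and 167193 with shLCN2_2, and 131587 and 125638 with shCTL. KRT19, another, had 38195 and 40506 with shLCN2_1, 127208 and 115301 with shLCN2_2, and 98373 and 93412 with shCTL. The shLCN2_1 libraries were the low ones for both, by 0.70 and 0.66 after GC removal (limma adjusted p = 0.00133 and 0.00144). EPCAM, the epithelial adhesion molecule, was the member called higher, at 17618 and 19147 with shLCN2_1, 11904 and 11876 with shLCN2_2, and 15836 and 16072 with shCTL. The median GC content of the list was 57.0%. In the bin of all genes from 55.2 to 58.2% GC, 1.70% were called higher and 17.3% lower, against 3.57% and 32.1% of the list. By the GC-removed values alone 4 members were higher and 14 lower, against 15.5% and 16.2% of all tested genes.

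Of 17 mesenchymal genes 3 were called higher, 17.6%, and 5 lower, 29.4%, against the background of 8.67% and 11%. The higher ones were VIM, LOX and AXL, and 3 of the lower ones were the collagen genes COL1A1, COL5A1 and COL6A2. COL5A1, a fibrillar collagen chain, had 15.7 and 140 with shLCN2_1, 1449 and 1567 with shLCN2_2, and 61.5 and 86.4 with shCTL, against 3110 and 3735 in the parental line. Its difference was -4.96 on the deposited values and -4.07 after GC removal. Only the shLCN2_2 libraries approached the parental level. ITGA5, the fibronectin receptor subunit, had 1110 and 1561 with shLCN2_1, 4086 and 4241 with shLCN2_2, and 2674 and 2515 with shCTL, a difference of -1.25 after GC removal (limma adjusted p = 0.00122). VIM, vimentin, had 55.6 and 62.8 with shLCN2_1, 24.9 and 21.6 with shLCN2_2, and 11.9 and 21.3 with shCTL, all far below 321 and 353 in the parental line. Without shLCN2_2 replicate 1 or replicate 2 the number called lower was 1, and without shLCN2_1 replicate 2 it was 11. Both of the collagens named beside COL1A1 lost their call without either shLCN2_2 library, with limma adjusted p up to 0.0658 for COL5A1 and 0.0771 for COL6A2, and COL1A1 likewise, up to 0.13. VIM lost its call without shLCN2_2 replicate 2, with adjusted p up to 0.0671. The number called higher fell to 0 without shLCN2_2 replicate 2. In the mesenchymal list replicate 1 of shLCN2_1 was below replicate 2 in 14 of 17 members.

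Secreted airway defence genes had 0 members called higher and 4 lower of 18, 22.2%, against the background of 8.67% and 11%. At an unadjusted limma p under 0.05 in both fits 0 were higher and 5 lower. More were called lower without either shLCN2_1 library and fewer without either shLCN2_2 library. Without either shLCN2_1 library some members were also called higher. BPIFB1, an airway secretory protein, had 405 and 642 with shLCN2_1, 2176 and 2090 with shLCN2_2, and 540 and 489 with shCTL. Its high level was in the shLCN2_2 libraries, and the difference was -1.86 after GC removal (SE 0.20, limma adjusted p = 0.000913). TFF1, a trefoil peptide of mucus, had 219 and 233 with shLCN2_1, 575 and 704 with shLCN2_2, and 410 and 375 with shCTL. Of 20 proteases and inhibitors 0 were called higher and 7 lower, 35%, with 0 and 9 at an unadjusted limma p under 0.05. The airway and protease lists also had 0 members higher by edgeR and DESeq2. CST3, the cathepsin inhibitor cystatin C, had 1881 and 2268 with shLCN2_1, 5923 and 5905 with shLCN2_2, and 3032 and 2746 with shCTL. CTSD, the lysosomal protease cathepsin D, had 5814 and 5715 with shLCN2_1, 25191 and 24742 with shLCN2_2, and 24149 and 23060 with shCTL, so it was low with shLCN2_1 alone. Their differences after GC removal were -1.46 for CST3 (limma adjusted p = 0.000455) and -0.69 for CTSD (limma adjusted p = 0.00077). The 7 became 4 without shLCN2_2 replicate 1, 3 without shLCN2_2 replicate 2 and 13 without shLCN2_1 replicate 2.

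Lysosome and autophagy genes had 1 member called higher and 7 lower of 26, with 4 lower left without either shLCN2_2 library. The shares called higher and lower in this list were 3.85% and 26.9%, against the background of 8.67% and 11%. TFEB, the transcription factor that controls lysosome genes, had 179 and 177 with shLCN2_1, 631 and 696 with shLCN2_2, and 408 and 362 with shCTL. ULK1, the kinase that starts autophagy, had 308 and 308 with shLCN2_1, 1767 and 1872 with shLCN2_2, and 1144 and 1109 with shCTL. On the deposited values the hairpins lay on opposite sides of shCTL in both genes. Their differences were -1.89 and -2.56 on the deposited values, and -0.61 and -1.03 after GC removal (limma adjusted p = 0.00389 and 0.000573). GLA, a lysosomal galactosidase, was the member called higher, at 2996 and 2876 with shLCN2_1, 1685 and 1772 with shLCN2_2, and 2749 and 2863 with shCTL. The 1 higher member became 5 without shLCN2_1 replicate 2 and 3 without replicate 1.

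In the Wnt pathway 0 of 21 members were called higher and 6 lower by limma, 28.6%, against the background of 8.67% and 11%. At an unadjusted limma p under 0.05 the counts were 0 and 7, and 0 were higher by edgeR and DESeq2. The receptor FZD1 had 281 and 403 with shLCN2_1, 716 and 686 with shLCN2_2, and 393 and 385 with shCTL. DKK1, a secreted Wnt inhibitor, had 1630 and 2389 with shLCN2_1, 3513 and 3701 with shLCN2_2, and 2175 and 2118 with shCTL. For both genes shLCN2_2 was the high group, and the differences after GC removal were -1.24 for FZD1 (limma adjusted p = 0.00169) and -1.14 for DKK1 (limma adjusted p = 0.00271). The 6 became 2 without either shLCN2_2 library, 4 without any 1 library of shCTL or the parental line and 8 without shLCN2_1 replicate 2. In the TGF-beta pathway 2 of 24 were called higher, 8.33%, and 3 lower, 12.5%, near the background of 8.67% and 11%. ID3, a target of BMP signalling, had 735 and 507 with shLCN2_1, 2202 and 2320 with shLCN2_2, and 1237 and 1149 with shCTL. Without shLCN2_1 replicate 2 the number lower was 9.

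Among outputs of MAPK signalling 1 of 26 was called higher and 3 lower, again 9 lower without shLCN2_1 replicate 2. JUNB, an AP-1 subunit, had 494 and 470 with shLCN2_1, 3357 and 3367 with shLCN2_2, and 2272 and 2231 with shCTL. CCND1, cyclin D1, had 14481 and 17464 with shLCN2_1, 29875 and 30230 with shLCN2_2, and 22299 and 23153 with shCTL. ETV5, an ETS factor downstream of ERK, was the higher member, at 3626 and 3605 with shLCN2_1, 2147 and 2083 with shLCN2_2, and 2694 and 2461 with shCTL. The growth-factor receptor ERBB2 had 2770 and 2380 with shLCN2_1, 6689 and 6345 with shLCN2_2, and 4542 and 4281 with shCTL, and was 1 of 2 called lower among 14 EGFR family members. The differences on the deposited values and after GC removal were -2.80 and -1.16 for JUNB, -0.92 and -0.54 for CCND1, and -1.34 and -0.51 for ERBB2. The shares called higher and lower were 3.85% and 11.5% for MAPK outputs and 0% and 14.3% for the EGFR family. The background was 8.67% and 11%. The list medians after GC removal were -0.07 for MAPK outputs and -0.05 for the EGFR family, and both changed sign with upper-quartile scaling, that of the EGFR family also with TMM scaling.

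Nuclear genes of the respiratory chain were called higher in 12 of 28 members, 42.9%, and lower in 4, 14.3%. Ribosomal protein genes were called higher in 12 of 32, 37.5%, and lower in 4, 12.5%. Over all tested genes the shares were 8.67% and 11%. COX5A, a subunit of cytochrome c oxidase, had 3126 and 2953 with shLCN2_1, 2249 and 2217 with shLCN2_2, and 2535 and 2508 with shCTL. NDUFA1, of complex I, had 5826 and 5563 with shLCN2_1, 4101 and 3607 with shLCN2_2, and 4836 and 4953 with shCTL, and SDHA, of complex II, went the other way, with 6020 and 5666 with shLCN2_1, 7746 and 7794 with shLCN2_2, and 7969 and 7750 with shCTL. Differences in this list were small, 0.37 for COX5A, 0.74 for NDUFA1 and -0.35 for SDHA after GC removal (limma adjusted p = 0.00173, 0.00068 and 0.00192). RPL32, a protein of the large ribosomal subunit, had 37218 and 34553 with shLCN2_1, 25597 and 24142 with shLCN2_2, and 33488 and 31437 with shCTL. RPLP1, of the ribosomal stalk, was low with shLCN2_1, at 9865 and 8410, against 22964 and 23559 with shLCN2_2 and 26791 and 27102 with shCTL. Ribosomal protein genes have many processed copies in the genome, so their values are uncertain. The higher counts fell to 4 for the respiratory chain and to 5 for ribosomal proteins where the GC trend was centred on its mean. Without shLCN2_2 replicate 1 and replicate 2 they were 4 and 4 for the respiratory chain and 6 and 5 for ribosomal proteins, and without a shCTL library 7 and 8. The 13 mitochondrially encoded transcripts had 0 calls by limma, edgeR and DESeq2, and 0 at an unadjusted limma p under 0.05 in both fits.

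Among cell division genes, 5 of 28 genes of mitosis were called higher by limma, 17.9%, and 0 lower, against 8.67% and 11% of all tested genes. The median GC content of the list was 44.0%. Of genes in the bin from 42.2 to 44.3% GC, 11.5% were called higher and 2.68% lower. At an unadjusted limma p under 0.05 the mitosis counts were 7 and 0, and 0 were lower by edgeR and DESeq2. Of the 28, 0 were higher without either shLCN2_2 library or where the GC trend was centred on its mean, against 13 without shLCN2_1 replicate 2. Of 28 genes of DNA replication 3 were higher and 1 lower, against 12 higher without shLCN2_1 replicate 1. MCM5, a subunit of the replicative helicase, was the lower one, at 2893 and 2946 with shLCN2_1, 6019 and 6358 with shLCN2_2, and 7012 and 6952 with shCTL. The shares called among replication genes were 10.7% higher and 3.57% lower. Of 25 splicing factors 0 were called in either direction by limma, and 0 at an unadjusted p under 0.05 in both fits, whereas edgeR called 4 higher, DESeq2 0, and limma 11 higher without shLCN2_1 replicate 2. Of 25 tested p53 targets 3 were called higher, 12%, and 4 lower, 16%, against the background of 8.67% and 11%, and without shLCN2_2 replicate 1 or replicate 2 there were 1 and 0 higher and 2 and 3 lower. PHLDA3, an inhibitor of AKT, was a lower one, at 639 and 611 with shLCN2_1, 2313 and 2511 with shLCN2_2, and 2171 and 1962 with shCTL, and its difference was -1.95 on the deposited values and -0.85 after GC removal.

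In sterol synthesis, too, the shLCN2_1 libraries parted. Replicate 1 was above replicate 2 in all but 2 of 25 tested members, with a median gap of 0.78 on the log2 scale. HMGCS1, which makes the precursor HMG-CoA, had 10020 and 4155 with shLCN2_1, 3062 and 2909 with shLCN2_2, and 2853 and 2976 with shCTL. INSIG1, the sterol-sensing retention protein, had 5197 and 1172 with shLCN2_1, 1957 and 1755 with shLCN2_2, and 1540 and 1619 with shCTL. Of the 25 members 0 were called higher and 1 lower by limma, 4%, against the background of 8.67% and 11%. Of them 2 each way had an unadjusted limma p under 0.05 in both fits, and edgeR called 4 and DESeq2 1 higher. The lower gene, CYP51A1, lanosterol demethylase, had 134 and 88.1 with shLCN2_1, 283 and 273 with shLCN2_2, and 255 and 225 with shCTL, a difference of -1.66 after GC removal (SE 0.23, limma adjusted p = 0.0022). Without shLCN2_1 replicate 2 there were 15 higher and 2 lower, and without shLCN2_1 replicate 1 there were 2 higher and 7 lower. The fatty acid gene ELOVL6, an elongase, was called higher, at 4037 and 3277 with shLCN2_1, 1539 and 1605 with shLCN2_2, and 2791 and 2872 with shCTL.

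Of 13 tested components of RNA interference, through which hairpins act, 2 were called higher, 15.4%, and 1 lower, 7.69%, near the background of 8.67% and 11%. The 3 calls held under every alternative tried. AGO1, an Argonaute protein, had 2486 and 2597 with shLCN2_1, 1467 and 1376 with shLCN2_2, and 2222 and 2165 with shCTL. TNRC6A, its silencing partner, had 4748 and 4622 with shLCN2_1, 2658 and 2778 with shLCN2_2, and 4102 and 3993 with shCTL. Both were low in the shLCN2_2 libraries. AGO2, the Argonaute that cuts its target, was low with shLCN2_1, at 1197 and 1129, against 1663 and 1715 with shLCN2_2 and 1648 and 1668 with shCTL. Of 26 chromatin regulators 3 were called higher, 11.5%, and 7 lower, 26.9%. KDM5A, a histone demethylase, had 5539 and 4880 with shLCN2_1, 3113 and 3050 with shLCN2_2, and 3689 and 3641 with shCTL, and KDM6B, another, had 641 and 532 with shLCN2_1, 2077 and 1958 with shLCN2_2, and 1550 and 1536 with shCTL. The KDM6B difference was -1.79 on the deposited values and -0.49 after GC removal, and that of KDM5A 0.75 and 0.49. The 7 lower chromatin regulators became 2 without either shLCN2_2 library, and the 3 higher became 1 without any 1 library of shLCN2_2 or shCTL.

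The genes with the largest differences by the naming rule were mostly not members of these lists. The calcium-binding protein gene CALB1 had 70.3 and 102 with shLCN2_1, 4.82 and 19.1 with shLCN2_2, and 10.1 and 15.2 with shCTL. STRADB, a pseudokinase partner of LKB1, had 919 and 999 with shLCN2_1, 270 and 260 with shLCN2_2, and 650 and 633 with shCTL. LCP1, an actin-bundling protein of blood cells and many carcinomas, had 544 and 547 with shLCN2_1, 202 and 134 with shLCN2_2, and 163 and 167 with shCTL, all far below 7794 and 7161 in the parental line. CALB1 and LCP1 were high with shLCN2_1 alone, while STRADB was also low with shLCN2_2. Their differences after GC removal were 2.66, 1.56 and 1.47 (limma adjusted p = 0.013, 0.000167 and 0.00102). PELI2, an E3 ligase of Toll-like receptor signalling, had 703 and 481 with shLCN2_1, 191 and 163 with shLCN2_2, and 204 and 230 with shCTL. LOX, which cross-links collagen, had 104 and 57.3 with shLCN2_1, 20.1 and 19.1 with shLCN2_2, and 23.9 and 26.4 with shCTL. The remaining 7 of the 12 highest, RP11-1035H13.3, ATP8B2, UGT1A3, CHST4, HIST1H2BJ, WIPF3 and RP4-794H19.1, had differences of 1.49 to 1.95 after GC removal. CALB1 and WIPF3 lost their calls without shLCN2_2 replicate 1, and RP11-1035H13.3 without either shLCN2_2 library. UGT1A3 lost its call without shLCN2_2 replicate 1 and without either shCTL library. LOX lost its call without shLCN2_2 replicate 2 (0.0502), and CHST4 and HIST1H2BJ lost theirs without either library of shLCN2_2 and others, with adjusted p up to 0.212 and 0.183. UGT1A3 and HIST1H2BJ have near-identical copies and are uncertain.

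Among the 12 lowest, a trio of salivary cystatin genes stood together. CST1 had 12.6 and 49.6 with shLCN2_1, 281 and 235 with shLCN2_2, and 26.6 and 21.3 with shCTL. CST4 had 16.8 and 43.0 with shLCN2_1, 494 and 356 with shLCN2_2, and 33.9 and 26.4 with shCTL. CST2 followed them, at 6.29 and 36.3, then 236 and 199, then 23.9 and 18.3 in the same order of groups. Their differences on the deposited values and after GC removal were -3.30 and -2.70 for CST1, -3.91 and -3.23 for CST4, and -3.72 and -3.06 for CST2. All 3 were high with shLCN2_2, and being close copies of each other they may share reads. MRPS24, of the mitochondrial ribosome, had 31.5 and 45.2 with shLCN2_1, 425 and 425 with shLCN2_2, and 465 and 402 with shCTL. RNASEK had 40.9 and 48.5 with shLCN2_1, 323 and 353 with shLCN2_2, and 256 and 300 with shCTL. HIST3H2A, a replication-dependent histone gene, had 11.5 and 12.1 with shLCN2_1, 144 and 160 with shLCN2_2, and 119 and 114 with shCTL. These 3 genes were low with shLCN2_1 alone, and their differences after GC removal were -3.18, -2.35 and -3.00 (limma adjusted p = 0.00135, 0.0011 and 0.000618). MRPS24 and RNASEK overlap read-through transcripts in the annotation, so reads could be split. PSG5, a pregnancy-specific glycoprotein with close copies, had 31.5 and 26.4 with shLCN2_1, 170 and 161 with shLCN2_2, and 48.6 and 45.7 with shCTL. The others were COL5A1, IFI27, TMPRSS11E, RASD2 and B4GALNT2. Without either shLCN2_2 library the calls of CST1, CST2 and TMPRSS11E were lost, with adjusted p up to 0.0756, 0.0958 and 0.118, and B4GALNT2 lost its call without shLCN2_2 replicate 1 (0.0598).

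The level of LCN2 fell in the order shCTL, shLCN2_2 and shLCN2_1, so it was counted how often the called genes had the same order. Of the 3085 called genes, 11.9% had their shLCN2_2 mean between the shCTL and shLCN2_1 means on the deposited values. In 76.4% the hairpins lay on opposite sides of shCTL, and in 11.7% shLCN2_2 lay farther from shCTL than shLCN2_1 did. Over all 15275 tested genes with a GC value the shares were 30.9%, 50.4% and 18.7%. After GC removal they were 16.7%, 61.6% and 21.7% of the called genes. Of the called genes, 1101 were also called in the same direction between shLCN2_1 and shCTL, 1274 were called in the opposite direction between shLCN2_2 and shCTL, and 808 were called in neither. A gene called between the hairpins tends by that choice to lie on either side of another group, so these shares describe the calls and carry no test. Between shLCN2_1 and shCTL 5.83% of tested genes were called higher and 8.49% lower, and between shLCN2_2 and shCTL 8.92% and 9.06%, from fits that share the shCTL libraries.

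The graded genes, with no overlap between shLCN2_1, shLCN2_2 and shCTL, numbered 206 among the called genes, 6.68%, against 12.8% of all tested genes. PTGES, which makes prostaglandin E2, had 1692 and 1727 with shLCN2_1, 5924 and 6358 with shLCN2_2, and 6867 and 6610 with shCTL. C11orf83, an assembly factor of respiratory complex III, had 317 and 251 with shLCN2_1, 1151 and 1298 with shLCN2_2, and 1413 and 1387 with shCTL. RPS28, of the small ribosomal subunit, had 2494 and 2193 with shLCN2_1, 7201 and 7281 with shLCN2_2, and 8061 and 7749 with shCTL. In these genes, as in SRXN1 and RPLP1, the step between shLCN2_1 and shLCN2_2 was larger than that between shLCN2_2 and shCTL, and the differences between the hairpins after GC removal were -1.38 for PTGES, -1.77 for C11orf83 and -1.12 for RPS28 (limma adjusted p = 0.000766, 0.000865 and 0.000863). Among the graded higher genes, ATP8B2, a phospholipid flippase, had 66.1 and 60.6 with shLCN2_1, 16.9 and 19.9 with shLCN2_2, and 11.9 and 12.2 with shCTL. UNC13A, of synaptic vesicle priming, had 256 and 291 with shLCN2_1, 139 and 140 with shLCN2_2, and 58.7 and 73.2 with shCTL. UNC13A lost its call without any 1 library of the 3 groups, C9orf152 without shLCN2_2 replicate 2 and NPNT without shLCN2_1 replicate 1 or either shLCN2_2 library, with limma adjusted p up to 0.133, 0.12 and 0.122. ATP8B2 kept its call whichever library was left out.

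In MDA231 fewer genes were called between the same hairpins. Of 14387 tested genes 215 were higher with shLCN2_1 than with shLCN2_2, 1.49%, and 164 were lower, 1.14%, together 2.63%. However, without any 1 library of shLCN2_1 or shLCN2_2 the calls in both directions together fell to between 8 and 11, without shCTL replicate 1 or replicate 2 they were 71 and 70, and without either parental library they were 1208 and 1192. LCN2 was barely expressed there, at 10 and 9 reads with shLCN2_1, 6 and 7 with shLCN2_2, 27 and 18 with shCTL and 3 and 1 in the parental line, and was not tested. Of 13392 genes tested in both lines, 2763 were called in PC9 and 321 in MDA231. Of these, 94 were called in both, 3.40% of the PC9 calls and 29.3% of the MDA231 calls. For comparison, 2.63% of all tested genes were called in MDA231 and 19.7% in PC9. Of the 94, 58 had the same direction and 36 the opposite one. Across genes the differences in the lines had a Spearman correlation of 0.061, a description only.

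The genes named next were chosen after their values were seen. FAM222B had 592 and 767 with shLCN2_1 and 2370 and 2467 with shLCN2_2 in PC9, and 357 and 339 with shLCN2_1 and 965 and 922 with shLCN2_2 in MDA231. TMED9, a cargo receptor between the endoplasmic reticulum and the Golgi, had 2353 and 2720 with shLCN2_1, 7916 and 8117 with shLCN2_2, and 7803 and 7530 with shCTL in PC9. In MDA231 TMED9 had 2875 and 3153 with shLCN2_1, 6395 and 5981 with shLCN2_2, and 5850 and 5497 with shCTL. FAM222B, TMED9 and SELT, a selenoprotein of the endoplasmic reticulum, were also called lower than shCTL with shLCN2_1 in both lines, where 0.445% of tested genes were so called in MDA231. YRDC, a tRNA-modifying enzyme, was higher in both lines, by 1.00 in PC9 and 0.57 in MDA231 after GC removal, and with shLCN2_2 it was called lower than shCTL in both, as were 0.368% of tested genes in MDA231. The opposite direction was seen for LCP1, at 101 and 77.1 with shLCN2_1 and 346 and 399 with shLCN2_2 in MDA231. AKR1C1 likewise had 355 and 337 with shLCN2_1 and 780 and 765 with shLCN2_2 in MDA231. FTL and KRT7 were also called in opposite directions. Their differences after GC removal were 1.12 and -0.70 in PC9 and -0.66 and 2.32 in MDA231. IGF2, an insulin-like growth factor, had 2746 and 4859 with shLCN2_1 and 13897 and 14776 with shLCN2_2 in PC9, and 311 and 370 with shLCN2_1 and 144 and 127 with shLCN2_2 in MDA231, and its PC9 difference was -1.97 on the deposited values and -1.20 after GC removal. The difference between the lines passed an adjusted p under 0.05 in both fits for 2284 of the 13392 genes, 17.1%.

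**Figure D4:**
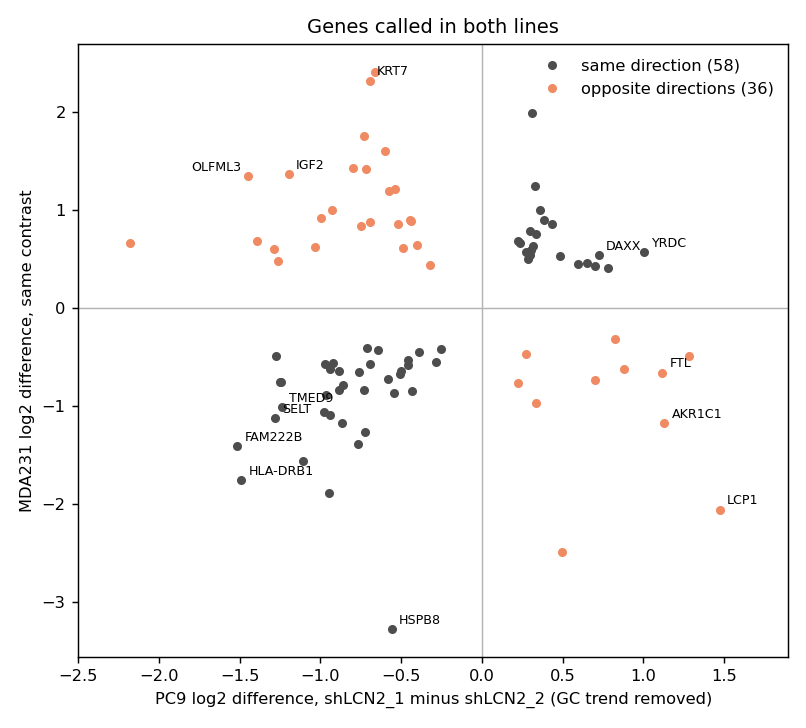
Log2 difference of shLCN2_1 minus shLCN2_2 after GC removal in PC9 on the x axis and in MDA231 on the y axis, for the 94 genes called in both lines, 1 point a gene. The 58 genes in the same direction lie in the lower left and upper right, and the 36 in opposite directions lie at the upper left and lower right, with LCP1 and AKR1C1 at the lower right.

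Of 8 tested members of a wider macrophage and granulocyte list, 4 were called lower by limma, 50%, and 0 higher. The background was 11% lower and 8.67% higher. Those called lower were CD14, CD68, CSF1R and ITGAM. At an unadjusted p under 0.05 in both fits 1 was higher, edgeR called 1 higher and DESeq2 0. CD14, a co-receptor for bacterial lipopolysaccharide, had 36.7 and 51.8 with shLCN2_1, 267 and 218 with shLCN2_2, and 161 and 137 with shCTL. ITGAM, an integrin of myeloid cells, had 69.2 and 94.7 with shLCN2_1, 305 and 287 with shLCN2_2, and 136 and 133 with shCTL. CD68 lost its call without either shLCN2_2 library (adjusted p up to 0.103). The endothelial cadherin CDH5 had 500 and 312 with shLCN2_1, 1697 and 1458 with shLCN2_2, and 1053 and 1018 with shCTL. The fibroblast genes COL1A2, COL3A1, DCN, LUM and PDGFRA were not listed. All groups were cell lines grown in dishes, and the part of other cell types in the differences between the hairpins was not tested. By chromosome, the share of tested genes called lower was 22.5% on chromosome 22, 17.6% on chromosome 19 and 17.4% on chromosome 16, which have high median GC content, and the share called higher was largest on chromosome 10, at 11.9%. The chromosome medians after GC removal lay between -0.09 and 0.07.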

How the data were processed

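RNA was sequenced from polyadenylated transcripts with a stranded kit, per the labels' protocols. For each cell line the authors deposited a signal table, in which every library's gene reads had been scaled by its own DESeq2 size factor. The submitters' processing notes name HTSeq 0.5.3, DESeq2 1.22.1 and the build hg19. Aligner, annotation and strand handling: not given in the sources used here. All 155632 PC9 values were within 0.001 of whole reads once scaled (100%), and the PC9 table's 4 lines that name no gene, 24.4 to 36.5% of reads, were left out.

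Differences were tested with limma 3.58.1 in R 4.3.3 on log2(value + 1), for genes with a mean of at least 10, with the 4 groups of a line in 1 fit and trended empirical Bayes. This left 4 residual and 4.12 prior degrees of freedom in PC9. The contrast was shLCN2_1 minus shLCN2_2. The fit was repeated after subtraction of each library's lowess trend (span 0.3) of deviation on GC content, taken from GENCODE 29 transcripts of GRCh38, which 97.6% of tested PC9 genes matched. The trend kept each library's median, a choice made after seeing the data. The 375 genes without a GC value could not be called. edgeR 4.0.16 and DESeq2 1.42.0 were run on the recovered reads as alternatives, and the pipeline was tested on simulated data. The effects in the lines were compared through their standard errors.

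Named genes were LCN2, the 12 highest and 12 lowest called genes with no overlap and a group mean of at least 50, ranked by the smaller difference of the 2 fits, the 6 highest and 6 lowest graded ones, up to 4 called members of each list and members needed to describe a list. Y-linked genes and XIST were left out, and 1 list member is not reported here. The comparison and the gene lists were chosen with earlier results of these data known. Replicate numbers were not used as pairs, since the labels tie them to nothing shared and the deviations of same-numbered libraries correlated at -0.024 to 0.083 in PC9 and, with both signs, at -0.589 to 0.445 in MDA231 (-0.226 to 0.127 after GC removal). Alternatives were the pseudocount, the filter, the GC correction, the scaling, the libraries fitted, a replicate block, the count tools and leaving out each library. p-values are two-sided with Benjamini-Hochberg adjustment.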

Additional observations from a re-analysis of the deposited data

Results flagged for a closer look

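Among LCN2, the 12 highest, the 12 lowest and the graded genes, 18 had a difference between shLCN2_1 and shLCN2_2 that itself differed between PC9 and MDA231, with adjusted p under 0.05 in both fits over the 13392 genes tested in both lines, of which 17.1% passed. The values are the PC9 difference minus the MDA231 difference on the log2 scale after GC removal. The PC9 difference was the more positive for LCP1 by 3.53, for CHST4 by 3.32, for ATP8B2 by 2.03, for STRADB by 1.91, for LOX by 1.74, for VIM by 1.53, for RP4-794H19.1 by 1.04 and for PELI2 by 0.71. It was the more negative for CST4 (-4.30), COL5A1 (-3.98), CST2 (-3.50), CST1 (-2.91), MRPS24 (-2.62), RNASEK (-2.58) and IFI27 (-2.56). The same was so of PTGES (-1.80), C11orf83 (-1.44) and RPS28 (-0.96). These genes were chosen for large PC9 differences, so a difference from a second line is partly given by that choice. For CHST4 the MDA231 values were 0 and 0 with shLCN2_1 and 2.87 and 2.11 with shLCN2_2. There 3 reads corresponded to 2.16 and 2.11 in the shLCN2_2 libraries, so its MDA231 difference rested on few reads. Its MDA231 parental libraries had 45.4 and 32.8. Groups of 2 libraries were too small for a check of single outlying libraries.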

How the results depend on the processing

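The lower LCN2 with shLCN2_1 kept its direction and its adjusted p under 0.05 in all 23 alternatives, with a log2 difference of -2.49 to -1.51 when 1 library was left out. Counts moved more. In PC9 the deposited values alone gave 4006 higher and 4523 lower genes with 1923 graded, that is, with the shLCN2_2 mean between the shLCN2_1 and shCTL means (367 by the rule with both fits), and the GC-removed values alone 2423 higher and 1170 graded. Upper-quartile scaling gave 2282 higher, a GC trend centred on its mean, added after seeing the data, 502 higher, and a fit of the 4 hairpin libraries alone 400 higher, 904 lower and 137 graded. Leaving out 1 library gave 458 to 2441 higher, 742 to 2758 lower and 105 to 878 graded genes. The correlation of the difference with GC content was -0.64 with no filter, 0.018 after GC removal and -0.71 to -0.64 with 1 library left out. In MDA231 the calls numbered 2899 with the GC-removed values alone, 174 with a replicate block, 674 by edgeR, 807 by DESeq2 and 8 to 1208 with 1 library left out. Why the counts moved was not tested. The replicate block gave 1259 higher and 1652 lower genes in PC9, within 1.5 times of the counts without it, and 133 of 144 named genes kept their call. Fitted alone, the hairpin libraries kept 94 of the 144. Medians of 4, 8 and 7 lists changed sign with TMM scaling, upper-quartile scaling and the mean-centred trend. With 2 libraries a group, 1 of them alone is assumed to vary like the other groups when its partner is left out.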
